A study of Mus musculus with 2 samples.

Results

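The data described here are the 9 genes of calcineurin signalling in the gastrocnemius of the mouse, a calf muscle made mainly of fast fibres. They are the calcineurin subunit genes Ppp3ca, Ppp3cb and Ppp3r1, the transcription factor genes Nfatc1, Nfatc2, Nfatc3 and Nfatc4, and the calcipressin genes Rcan1 and Rcan2. The genes were taken by symbol, 9 of 55536 genes in the deposited tables, and all 9 were found in both libraries. Total RNA came from 2 muscle samples of female B6CASTF1/J mice, the first-generation cross of C57BL/6J and CAST/EiJ, aged 18 to 20 months and given no treatment that the labels name. They form 1 group, biological replicates 2 and 1, with 300 ng of input RNA each. No younger animals, males or other strains were analysed here, so age cannot be compared, and with 1 group of 2 libraries no test was possible. The replicates are numbered as biological ones but share a donor identifier, which names the strain, so the labels do not say outright that they are separate animals. Counts over all genes came to 43722892 for replicate 2 and 38654555 for replicate 1. The 5 skeletal muscle markers Acta1, Ckm, Myh4, Mylpf and Tnnt3 summed to 81300 TPM in replicate 2 and 87302 TPM in replicate 1, and all 5 were detected in both libraries.

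Calcineurin is a phosphatase that is switched on by calcium and calmodulin. It consists of a catalytic A subunit and a calcium-binding regulatory B subunit. It removes phosphates from the cytoplasmic NFAT proteins, which then enter the nucleus and bind DNA. In skeletal muscle this pathway is known for its part in the slow-fibre gene programme. Calcipressins bind calcineurin and can inhibit it, and Rcan1 is itself a known target of calcineurin and NFAT through a start site inside the gene.

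The subunit genes were the most abundant of the 9, the calcipressins and Nfatc1 and Nfatc3 lay several-fold below them, and Nfatc4 was near the lower limit. Levels are in TPM, a unit scaled for transcript length and depth, as deposited from RSEM. Ppp3ca, one of the genes for the catalytic subunit (ENSMUSG00000028161.17, mm10 chr3:136670124-136937727, plus strand), had 89.1 TPM in replicate 2 and 93.2 TPM in replicate 1. Ppp3cb, another catalytic subunit gene (ENSMUSG00000021816.11, chr14:20499364-20546573, minus strand), had 83.05 TPM in replicate 2 and 94.9 TPM in replicate 1. The ranges of both genes overlapped, so neither led by RSEM. Ppp3r1, the regulatory subunit gene (ENSMUSG00000033953.10, chr11:17159263-17200375, plus strand), had 63.9 TPM in replicate 2 and 64.8 TPM in replicate 1. It lay below both catalytic genes in both libraries. By mean TPM the subunit genes ranked 688, 704 and 956 among all genes.

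Ppp3cc, the catalytic subunit best known from testis, took 4.62% of the catalytic TPM in replicate 2 and 4.45% in replicate 1. Ppp3ca took 49.4% in replicate 2 and 47.3% in replicate 1, and Ppp3cb took 46.0% in replicate 2 and 48.2% in replicate 1. The other regulatory subunit gene, Ppp3r2, also a testis gene, had 0 counts in both libraries. Since 0 counts allow up to 3, its upper limit was 0.0686 CPM for replicate 2 and 0.0776 CPM for replicate 1, for counting error only. Summed catalytic TPM stood at 2.82 times that of Ppp3r1 in replicate 2 and at 3.04 times in replicate 1.

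Of the NFAT genes, Nfatc1 and Nfatc3 carried most of the expression. Nfatc1 (ENSMUSG00000033016.16, minus strand), a factor also known from valve and bone cells, had 14.7 TPM in replicate 2 and 16.5 TPM in replicate 1. Nfatc3 (ENSMUSG00000031902.10, chr8:106058840-106130537, plus strand), a factor known from muscle and thymus, had 12.2 TPM in replicate 2 and 14.4 TPM in replicate 1. Its range lay below that of Nfatc1 without overlap by RSEM, but the ranges overlapped by kallisto, a second estimate from the same reads. By kallisto Nfatc3 had 14.8 TPM in replicate 2 and 18.9 TPM in replicate 1, and Nfatc1 had 17.8 TPM in replicate 2 and 21.1 TPM in replicate 1. Nfatc2 (ENSMUSG00000027544.16, chr2:168476410-168601657, minus strand), known from lymphocytes and from muscle cell growth, had 4.42 TPM in replicate 2 and 5.88 TPM in replicate 1. Nfatc4 (ENSMUSG00000023411.12, chr14:55823144-55833943, plus strand), a factor known from heart and nerve cells, had 0.67 TPM in replicate 2, from 74 counts, and 1.33 TPM in replicate 1, from 106 counts. The deposited RSEM interval for Nfatc4 was 0.828 to 1.79 TPM in replicate 2 and 1.38 to 2.71 TPM in replicate 1, and neither holds the estimate it belongs to. The deposited posterior mean, a further RSEM estimate, averaged 1.65 TPM over both libraries for Nfatc4, against 1.00 TPM, and put its share of NFATc TPM at 4.55%, against 2.79%. Of the summed NFATc TPM, Nfatc1 took 45.9% in replicate 2 and 43.3% in replicate 1. Nfatc3 took 38.2% in replicate 2 and 37.8% in replicate 1. Nfatc2 took 13.8% and Nfatc4 2.09% in replicate 2, and 15.4% and 3.49% in replicate 1.

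Both calcipressins were well above the floor, and they had the highest ratios between the libraries. Rcan1 (ENSMUSG00000022951.16, chr16:92391953-92470867, minus strand) had 23.3 TPM in replicate 2 and 16.9 TPM in replicate 1. Rcan2 (ENSMUSG00000039601.16, chr17:43801351-44039516, plus strand), a calcipressin known from heart, muscle and brain, had 22.7 TPM in replicate 2 and 7.96 TPM in replicate 1. By RSEM Rcan1 and Rcan2 were thus nearly level in replicate 2, whereas Rcan1 was the higher in replicate 1. The ratio of Rcan2 to Rcan1 TPM was 0.975 in replicate 2 and 0.470 in replicate 1 by RSEM, and 1.16 in replicate 2 and 0.624 in replicate 1 by kallisto. Rcan3, the remaining calcipressin gene, had 1.33 TPM in replicate 2 and 0.91 TPM in replicate 1. Summed calcipressin TPM was 1.48 times the summed NFATc TPM in replicate 2 and 0.677 times in replicate 1.

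In order of mean level, Ppp3ca had 91.1 ± 2.93 TPM, Ppp3cb 89.0 ± 8.39 TPM and Ppp3r1 64.4 ± 0.615 TPM (SD, n = 2). Rcan1 followed at 20.1 ± 4.51 TPM, Nfatc1 at 15.6 ± 1.27 TPM and Rcan2 at 15.35 ± 10.5 TPM. Nfatc3 had 13.3 ± 1.53 TPM, Nfatc2 5.15 ± 1.03 TPM and Nfatc4 1.00 ± 0.467 TPM. The range of Rcan2 covered those of Nfatc1 and Nfatc3 and overlapped that of Rcan1, so its place in the order was not fixed by these data. Of the 9 genes, 8 had at least 1 TPM in both libraries, Nfatc4 being the exception, against 19.7% of all annotated genes. By posterior mean and by kallisto all 9 did. The kallisto values were higher than those of RSEM for each of the 9 genes in both libraries. By kallisto Ppp3ca had 139 TPM in replicate 2 and 155 TPM in replicate 1, and Nfatc4 had 1.09 TPM in replicate 2 and 1.88 TPM in replicate 1. By that estimate Ppp3cb had 98.9 TPM in replicate 2 and 123 TPM in replicate 1, below Ppp3ca without overlap, so the order of the catalytic genes depended on the quantifier.

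**Figure D1:**
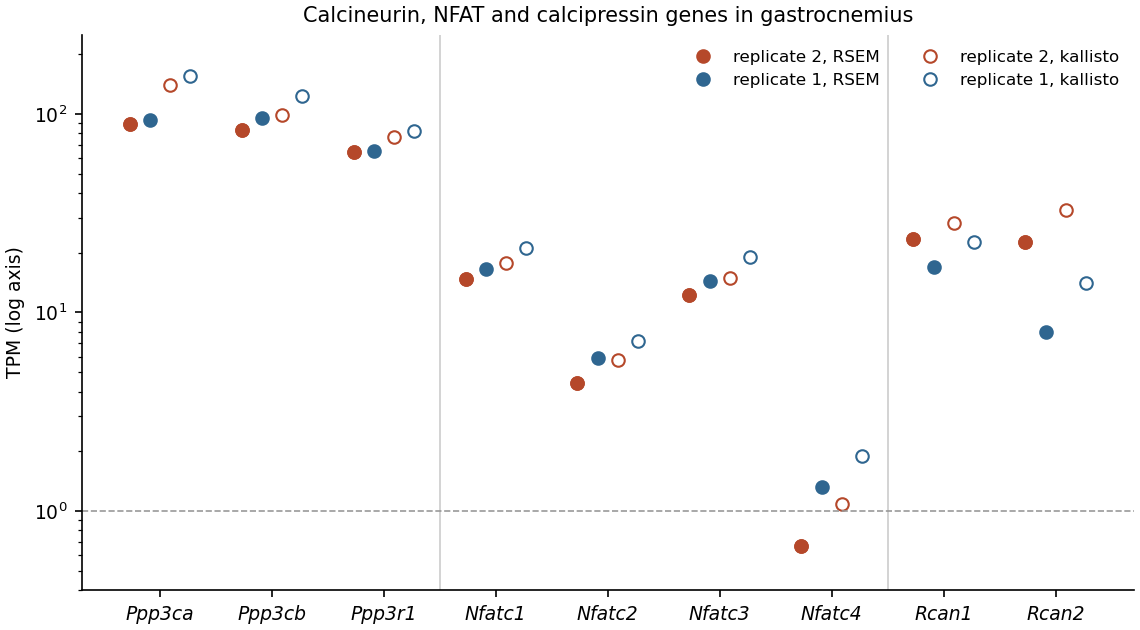
Level of each of the 9 genes in TPM on a log axis, with replicate 2 left of replicate 1 and the RSEM values (filled) left of the kallisto values (open); the dashed line marks 1 TPM. The subunit genes lie between 63.9 and 94.9 TPM by RSEM, and Rcan2 has the widest gap between the libraries, at 22.7 TPM in replicate 2 and 7.96 TPM in replicate 1.

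Between the libraries, Rcan2 differed most, and the subunit genes and Nfatc1 differed little. The ratio of replicate 2 over replicate 1 was taken from counts scaled by the trimmed mean of M-values (TMM), and its 95% intervals are exact binomial ones that cover counting error only. Rcan2 had 1750 counts in replicate 2 and 591 in replicate 1, a log2 ratio of 1.53 and a fold of 2.89 (2.64 to 3.19). Of the 12969 genes tested, those whose counts add up to 50 or more, 1.70% lay as far from 0. Rcan1 had 1611 counts in replicate 2 and 1050 in replicate 1, a log2 ratio of 0.59 and a fold of 1.502 (1.39 to 1.63), and 13.6% of genes lay as far. Rcan3, at a log2 ratio of 0.36 from 117 counts in replicate 2 and 89 in replicate 1, had an interval of 0.969 to 1.72 that holds 1.

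The subunit genes differed by less than the spread of most genes. Ppp3ca had 9826 counts in replicate 2 and 9092 in replicate 1, a log2 ratio of 0.08. Ppp3cb had 8165 counts in replicate 2 and 8353 in replicate 1, a log2 ratio of -0.06. Ppp3r1 had 5743 counts in replicate 2 and 5170 in replicate 1, a log2 ratio of 0.12. Their counting intervals, 1.03 to 1.09 for Ppp3ca, 0.929 to 0.987 for Ppp3cb and 1.05 to 1.13 for Ppp3r1, exclude 1, but between 65.9% and 81.6% of all genes tested lay as far from 0. Ppp3ca and Ppp3r1 lay above 0 with TMM and with DESeq2 size factors. Ppp3ca at -0.14 and Ppp3r1 at -0.10 lay below 0 when scaled by spike-in totals, a scaling that moves the median of all genes by -0.22.

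All 4 NFATc genes lay below 0 with TMM and with DESeq2 size factors. They also did with spike-in totals and with total gene counts, but those move all genes downwards, so this adds nothing to the direction. Nfatc1 had 2168 counts in replicate 2 and 2155 in replicate 1, a log2 ratio of -0.02. Nfatc3 had 2165 counts in replicate 2 and 2227 in replicate 1, a log2 ratio of -0.07, and Nfatc2 had 729 in replicate 2 and 783 in replicate 1, a log2 ratio of -0.13. The counting intervals of these 3 genes hold 1, the widest being 0.823 to 1.01 for Nfatc2. Nfatc4 had the lowest log2 ratio of the 9, -0.54, with an interval of 0.501 to 0.929, and 15.7% of genes lay as far.

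Of the 9 genes, 1 passed 2-fold, Rcan2, which was higher in replicate 2, and none was 2-fold lower. Of all tested genes 4.64% passed 2-fold in either direction, 2.7% higher and 1.94% lower. The median log2 ratio of the 9 was -0.02, with 4 above 0 and 5 below, and the median over all tested genes was -0.00094. The SD over all tested genes was 0.51, and 86.3% of them lay within 1.5-fold. As a group the 9 genes thus stood at the centre of the distribution, with the calcipressins on its upper side.

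**Figure D2:**
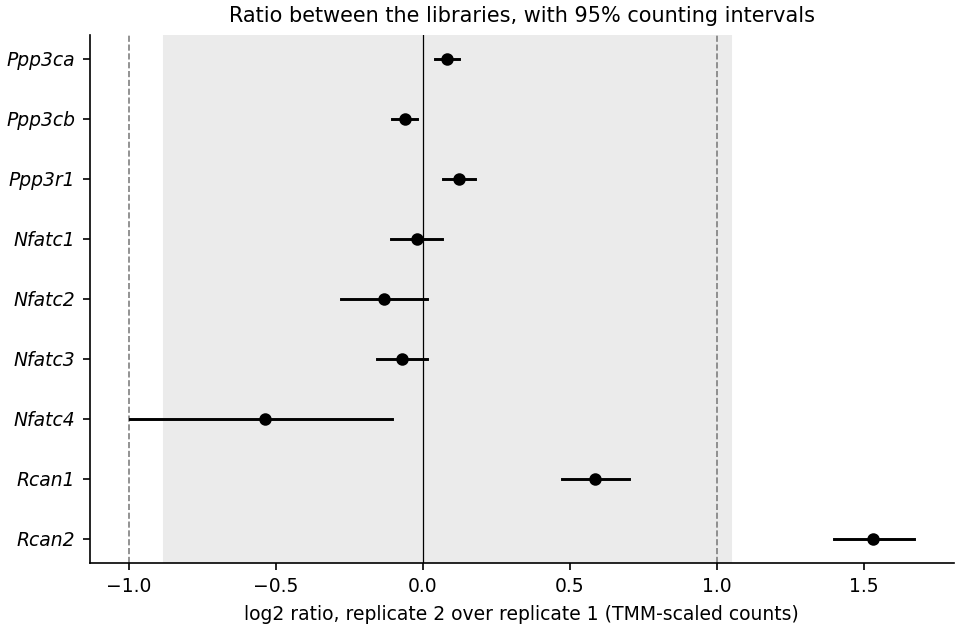
Log2 ratio of replicate 2 over replicate 1 for the 9 genes, from TMM-scaled counts, with 95% counting intervals as bars. Grey marks the middle 95% of all 12969 tested genes, from -0.88 to 1.05, and dashed lines mark 2-fold. Rcan2, at 1.53, is the gene outside the grey band.

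Markers of slow fibres differed in the same direction as Rcan2 and by more. Each of the 8 slow-fibre genes was at least 2-fold higher in replicate 2, with a median log2 ratio of 2.60 and a lowest value of 2.23. Their summed level was 2426 TPM in replicate 2 and 451 TPM in replicate 1. Myh7, the slow myosin heavy chain, had 409 TPM in replicate 2 and 65.8 TPM in replicate 1. The part of the slow-fibre genes in the level of Rcan2 was not tested, and in bulk muscle fewer fibres of a type and less RNA per fibre cannot be told apart. The direction of the endothelial list was the other way for 6 of its 8 genes, with a median log2 ratio of -0.65 and a sum of 56.3 TPM in replicate 2 and 77.2 TPM in replicate 1. The counting intervals of Nfatc1, Nfatc2 and Nfatc3 hold 1, and the part of the endothelial genes in the NFATc values was not tested. Pax7, Myf5 and Myod1, the satellite cell list, were all lower in replicate 2, with a sum of 7.49 TPM in replicate 2 and 21.95 TPM in replicate 1. Most of that sum was Myod1, at 6.51 TPM in replicate 2 and 19.9 TPM in replicate 1. Pax7 had 0.49 TPM in replicate 2 and 0.94 TPM in replicate 1, and Myf5 had 0.49 TPM in replicate 2 and 1.10 TPM in replicate 1. The fibro-adipogenic list had a median log2 ratio of 0.17 and a sum of 438 TPM in replicate 2 and 428 TPM in replicate 1, and 2 of its 6 genes, Col1a1 and Col3a1, were over 2-fold higher. T cells, for which NFAT is best known, left few traces: the 7 markers summed to 0.32 TPM in replicate 2 and 0.51 TPM in replicate 1. Of the 7, Cd3e, Cd3g and Cd8a had 0 counts in both libraries by RSEM. Cd4 had 5 counts in replicate 2 and 4 in replicate 1, and Trac had 1 in replicate 2 and 4 in replicate 1. Lck had 1 count in each library, and Cd3d had 1 in replicate 2 and 0 in replicate 1. By kallisto Cd8a had 0.296 TPM in replicate 2 and 0.179 TPM in replicate 1. Cd3d had 0.280 TPM in replicate 2 and 0.124 TPM in replicate 1, and Cd4 had 0.206 TPM in replicate 2 and 0.159 TPM in replicate 1. Lck had 0.0187 TPM in replicate 2 and 0.0227 TPM in replicate 1, and Trac had 0 TPM in replicate 2 and 0.0666 TPM in replicate 1. Cd3e had 0.0289 TPM and Cd3g 0.0295 TPM in replicate 2, and both had 0 in replicate 1.

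The catalytic genes share a short alternative exon, which both are known to include or skip. It is exon 13 of 14 in Ppp3ca-201 (chr3:136932011-136932040, plus strand) and in Ppp3cb-202 (chr14:20503247-20503276, minus strand). It is 30 bases long in both and adds 10 residues near the C terminus. The exons are shown, from the GENCODE M21 transcripts, because the forms of both genes differ by them; capitals mark the exon and lower case the 15 coding bases on either side.
Ppp3ca: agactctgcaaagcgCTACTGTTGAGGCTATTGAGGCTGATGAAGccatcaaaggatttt
Ppp3cb: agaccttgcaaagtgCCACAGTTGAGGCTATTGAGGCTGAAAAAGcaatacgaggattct
Of the 30 exon bases, 26 are identical between the genes, as are 22 of the 30 flanking bases.

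Ppp3ca used the exon in about equal measure with skipping, and both quantifiers gave that. Among its coding transcripts, the form with the exon, Ppp3ca-201 (521 residues), took 50.3% in replicate 2 and 49.3% in replicate 1 by RSEM. By kallisto it took 48.6% in replicate 2 and 46.9% in replicate 1. Ppp3ca-202 (511 residues), which lacks the exon, had 44.1 TPM in replicate 2 and 46.6 TPM in replicate 1 by RSEM. These 2 transcripts also differ in total length, 2194 and 4758 bases, so the estimate rests on more than the exon. Kallisto also placed 25.5 TPM in replicate 2 and 31.3 TPM in replicate 1 on the noncoding Ppp3ca-204, where RSEM placed 0 in both.

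Ppp3cb included the exon in most of its transcripts, but how many depended on the quantifier. The share with the exon was 91.8% in replicate 2 and 92.3% in replicate 1 by RSEM, and 62.2% in replicate 2 and 63.9% in replicate 1 by kallisto. Both ranked Ppp3cb-205 (524 residues) first, which has the exon and a preceding exon 3 bases shorter than that of Ppp3cb-202 (525 residues). Ppp3cb-205 had 52.7 TPM in replicate 2 and 64.6 TPM in replicate 1 by RSEM. Ppp3cb-201 (515 residues), which skips the exon, had 6.03 TPM in replicate 2 and 6.53 TPM in replicate 1 by RSEM, against 35.7 TPM in replicate 2 and 42.2 TPM in replicate 1 by kallisto. The kallisto values lay above the RSEM intervals, which ended at 8.45 TPM in replicate 2 and 10.5 TPM in replicate 1. Ppp3r1 was carried by 1 transcript, Ppp3r1-201 (170 residues), at 99.0% in replicate 2 and 99.7% in replicate 1 by RSEM.

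Rcan1 has alternative first exons that are spliced to the same next exon of 174 bases. The upstream exon, known as exon 1, starts Rcan1-202 (251 residues), and the internal exon, known as exon 4, starts Rcan1-201 (198 residues). Rcan2 has a like layout, with a long form (Rcan2-202, 243 residues) and a short form that starts further into the gene (Rcan2-203, 197 residues). The common 174-base exons of Rcan1 and Rcan2 share 114 bases, or 65.5%. The 250 bases before the RefSeq starts (GRCm38.p6) of both Rcan1 forms and of the short Rcan2 form are shown because the forms are told apart by where they start. The windows found before long Rcan2 starts overlap annotated exons and are not printed. Capitals mark matches on either strand to the NFAT core GGAAA, the cyclic AMP response element TGACGTCA and the AP-1 motif TGANTCA. No match overlaps another. A search for the TATA box, spelled TATAAA, found none in these windows.
Rcan1 exon 1 start, chr16:92466170-92466419, minus strand: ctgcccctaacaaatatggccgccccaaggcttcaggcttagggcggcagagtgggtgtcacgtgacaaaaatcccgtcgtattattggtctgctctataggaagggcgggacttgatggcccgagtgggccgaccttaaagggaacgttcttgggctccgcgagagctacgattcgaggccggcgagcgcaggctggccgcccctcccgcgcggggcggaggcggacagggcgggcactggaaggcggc
Rcan1 exon 4 start, chr16:92400079-92400328, minus strand: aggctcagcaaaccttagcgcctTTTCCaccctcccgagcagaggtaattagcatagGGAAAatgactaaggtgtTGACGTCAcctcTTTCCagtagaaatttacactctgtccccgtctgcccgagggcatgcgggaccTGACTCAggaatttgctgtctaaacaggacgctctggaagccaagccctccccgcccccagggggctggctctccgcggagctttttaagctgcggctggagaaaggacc
Rcan2 short-form start, chr17:43952749-43952998, plus strand: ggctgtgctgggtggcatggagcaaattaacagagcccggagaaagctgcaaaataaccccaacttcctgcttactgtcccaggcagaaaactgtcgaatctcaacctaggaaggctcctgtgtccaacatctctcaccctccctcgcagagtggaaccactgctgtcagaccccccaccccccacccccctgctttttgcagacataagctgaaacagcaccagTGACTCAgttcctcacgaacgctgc

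The window before the exon 4 start of Rcan1 held 3 NFAT cores, 227, 193 and 163 bases upstream, and 1 cyclic AMP response element 175 bases upstream, between the last 2 cores. It also held 1 AP-1 match, 110 bases upstream. It was not alone in its NFAT cores: 4 of the 12 windows found for the 9 genes held 3 cores, the others being before Nfatc2-203, Nfatc4-201 and Ppp3cb-202. The window before the exon 1 start held none of the 4 motifs. The short-form window of Rcan2 held 1 AP-1 match, 25 bases upstream. Before the long-form starts of Rcan2, 1 of 2 windows held NFAT cores, 238 and 150 bases upstream. Of 32851 mouse promoters in the RefSeq table, 55.6% held at least 1 NFAT core in the same window and 6.39% held 3 or more. The cyclic AMP response element was in 1.55%, the AP-1 motif in 6.75% and TATAAA in 12.4%. Of the 9 genes, 7 had 12 entries in that table.

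**Figure D3:**
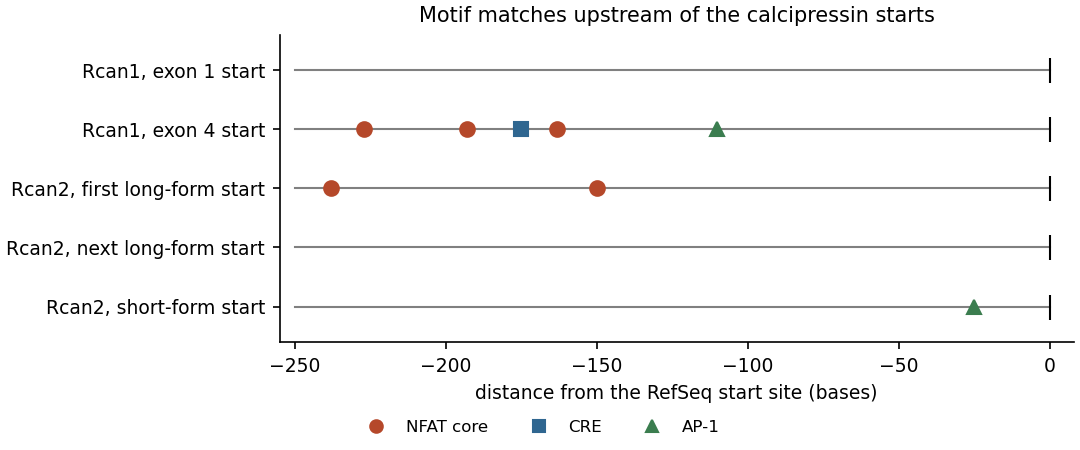
Position of motif matches in the 250 bases before 5 RefSeq starts of the calcipressin genes, in bases from the start, which is the tick at 0; circles mark NFAT cores, squares cyclic AMP response elements and triangles AP-1 matches. The window before the exon 4 start of Rcan1 holds 5 of the 8 matches drawn.

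Which Rcan1 form led could not be settled, because the quantifiers differed. By RSEM the exon 4 form Rcan1-201 had 12.8 TPM in replicate 2 and 7.31 TPM in replicate 1. The exon 1 form Rcan1-202 had 9.96 TPM in replicate 2 and 9.39 TPM in replicate 1. On that estimate the exon 4 form held the difference between the libraries, with intervals of 10.3 to 14.1 TPM in replicate 2 and 4.87 to 8.78 TPM in replicate 1 that do not overlap. By kallisto Rcan1-201 had 0.09 TPM in replicate 2 and 2.49 TPM in replicate 1, and Rcan1-202 had 27.1 TPM in replicate 2 and 19.2 TPM in replicate 1. Of the coding TPM on transcripts spliced to the common exon, the share of the exon 4 form was 56.3% in replicate 2 and 43.8% in replicate 1 by RSEM, against 0.337% in replicate 2 and 11.2% in replicate 1 by kallisto. The direction between the libraries was thus opposite in the quantifiers for the form, whereas the log2 ratio of the whole gene was 0.59 by both.

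Rcan2 was mostly in its long form in both libraries. The shares that follow are of the coding TPM on transcripts spliced to the common exon. They leave out Rcan2-207, which took 16.9% of the gene's TPM in replicate 2 and 9.31% in replicate 1 by RSEM. The long form took 98.8% in replicate 2 and 97.8% in replicate 1 by RSEM, and 80.8% in replicate 2 and 84.2% in replicate 1 by kallisto. Rcan2-202, the leading transcript by both, had 10.9 TPM in replicate 2 and 4.18 TPM in replicate 1 by RSEM. Rcan2-206, which starts elsewhere and encodes the same number of residues, had 5.21 TPM in replicate 2 and 2.23 TPM in replicate 1. Rcan2-204 (228 residues) had 2.59 TPM in replicate 2 and 0.64 TPM in replicate 1. Rcan2-207 (29 residues annotated) had 3.84 TPM in replicate 2 and 0.74 TPM in replicate 1 by RSEM and 0 by kallisto. Kallisto gave the short-form Rcan2-203 5.88 TPM in replicate 2 and 2.23 TPM in replicate 1, and RSEM gave it 0 TPM in replicate 2 and 0.16 TPM in replicate 1. The long-form transcripts Rcan2-202, Rcan2-204 and Rcan2-206 were each higher in replicate 2 by both quantifiers.

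The NFAT genes had several forms each, and only that of Nfatc3 was settled. Nfatc3-201 (1076 residues), which begins at the downstream first exon, took 80.5% in replicate 2 and 77.7% in replicate 1 by RSEM and led by kallisto too. Nfatc3-202 (1060 residues) took 16.4% in replicate 2 and 19.2% in replicate 1. The upstream first exon of Nfatc1 took 75.6% of coding TPM in replicate 2 and 45.3% in replicate 1 by RSEM, but 54.1% in replicate 2 and 55.6% in replicate 1 by kallisto. RSEM placed 25.3% in replicate 2 and 0.485% in replicate 1 on Nfatc1-204 (939 residues), which kallisto placed at 0.0131% in replicate 2 and 0.0496% in replicate 1. Nfatc1-203 (925 residues) led by kallisto in both libraries, at 45.6% in replicate 2 and 44.4% in replicate 1, ahead of Nfatc1-202 (827 residues) at 37.3% in replicate 2 and 34.7% in replicate 1. The short form Nfatc1-206 (717 residues), which ends at an earlier last exon, took 5.58% in replicate 2 and 9.33% in replicate 1 by RSEM, and 16.8% in replicate 2 and 20.8% in replicate 1 by kallisto. That short form is known as the inducible one in lymphocytes. It shares the earlier last exon with another transcript. Of coding TPM, that exon took 14.0% in replicate 2 and 19.2% in replicate 1 by RSEM. By kallisto it took 16.8% in replicate 2 and 20.8% in replicate 1, so the quantifiers differed less on the exon than on Nfatc1-206.

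For Nfatc2 the leading transcript by RSEM was Nfatc2-204 (923 residues) in replicate 2, at 31.4%, and Nfatc2-202 (927 residues) in replicate 1, at 25.3%. Kallisto gave Nfatc2-204 43.1% in replicate 2 and 43.6% in replicate 1. Nfatc2-201 (673 residues), which ends early, took 22.3% in replicate 2 and 17.9% in replicate 1 by RSEM. Nfatc2-203, Nfatc2-208 and Nfatc2-209 passed 10% by RSEM or kallisto in at least 1 library, none of them by both in both libraries. The counts of Nfatc4 were spread over 6 transcripts past 10% by RSEM or kallisto, with Nfatc4-202 leading in replicate 2 at 73.1% and Nfatc4-201 in replicate 1 at 45.5% by RSEM. The others were Nfatc4-203, Nfatc4-206, Nfatc4-208 and Nfatc4-211, and Nfatc4-209 passed it by posterior mean alone. Over the 67 annotated transcripts of the 9 genes, the leading one was the same in both libraries for 4 of 9 genes by RSEM and for 9 of 9 by kallisto. It was the same by RSEM and kallisto in both libraries for Nfatc3, Ppp3cb, Ppp3r1 and Rcan2.

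**Figure D4:**
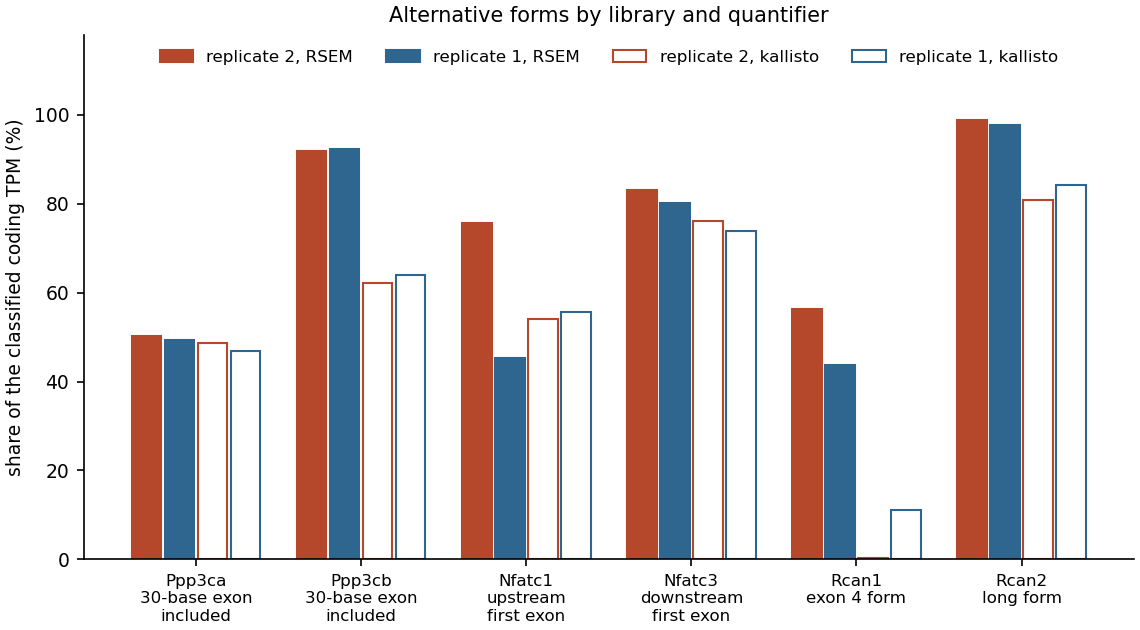
Share of 6 alternative forms in the coding TPM that each event classifies, in percent, with replicate 2 left of replicate 1 and RSEM (filled bars) left of kallisto (open bars). The exon 4 form of Rcan1 lies at 56.3% in replicate 2 and 43.8% in replicate 1 by RSEM, and at 0.337% in replicate 2 and 11.2% in replicate 1 by kallisto, while the Ppp3ca exon lies between 46.9% and 50.3%.

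Of the other genes of the pathway, 2 passed 2-fold between the libraries, both higher in replicate 2. Of all tested genes, 4.64% passed 2-fold in either direction and 2.7% were 2-fold higher. The pathway list held 33 symbols and 34 genes, of which 30 were tested and 26 had at least 1 TPM in both libraries. That level in both libraries was reached by 19.7% of all annotated genes. The median log2 ratio of the list was -0.05, with 13 above 0 and 17 below, which is close to the centre of all genes. Myoz2, a sarcomeric protein of slow and heart muscle that binds calcineurin, had 154 TPM in replicate 2 and 50.2 TPM in replicate 1, a log2 ratio of 1.77. Homer2, a scaffold protein known to compete with calcineurin for NFAT, had 22.7 TPM in replicate 2 and 10.8 TPM in replicate 1, a log2 ratio of 1.14. Like Rcan2, both were higher in the library with more slow-fibre RNA, and the part of the fibre mix was not tested. Homer3 had 1.27 TPM in replicate 2 and 1.46 TPM in replicate 1, a log2 ratio of -0.18. The 4 untested genes were Ppp3r2, Akap5 and 2 genes named Nron, a noncoding repressor of NFAT, both at 0 counts in both libraries; Akap5 and Nron are named here after their values were seen.

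Calmodulin, which carries the calcium signal to calcineurin, was slightly lower in replicate 2 for Calm2 and Calm3. Calm3 had 146 TPM in replicate 2 and 170 TPM in replicate 1, and Calm2 78.8 TPM in replicate 2 and 93.5 TPM in replicate 1, with log2 ratios of -0.07 and -0.08. Of all tested genes, 79.4% lay as far from 0 as Calm3 and 75.6% as far as Calm2. The RSEM counts of Calm2 and Calm3 were not whole, so reads were shared with other loci. Stim1, the calcium sensor of the store, had 74.2 TPM in replicate 2 and 68.0 TPM in replicate 1, a log2 ratio of 0.32. Stim2 had 19.15 TPM in replicate 2 and 26.5 TPM in replicate 1, a log2 ratio of -0.18. The calcium entry list had a median log2 ratio of 0.27 over 6 genes.

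Myoz1, the fast-fibre counterpart of Myoz2, was the most abundant calcineurin-binding gene of the list, at 1422 TPM in replicate 2 and 1602 TPM in replicate 1. Its log2 ratio of -0.09 contrasts with that of Myoz2, though the difference of the ratios was not tested. Among the kinases that counter calcineurin at NFAT, Csnk1a1 had 85.2 TPM in replicate 2 and 97.5 TPM in replicate 1, and Dyrk1a had 42.4 TPM in replicate 2 and 47.3 TPM in replicate 1. Of the 8 kinase genes, 7 lay below 0, with a median of -0.10, and 1 above, Dyrk1b at 0.78, which is named after its value was seen. Of all 12969 tested genes, 6463 lay above 0. The shifts were small: 77.3% of tested genes lay as far from 0 as Csnk1a1 and 69.3% as far as Dyrk1a. Nfat5, the NFAT relative that does not depend on calcineurin, had 7.18 TPM in replicate 2 and 8.66 TPM in replicate 1, a log2 ratio of -0.14. Ppp3cc had 8.33 TPM in replicate 2 and 8.76 TPM in replicate 1, a log2 ratio of 0.06.

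**Figure D5:**
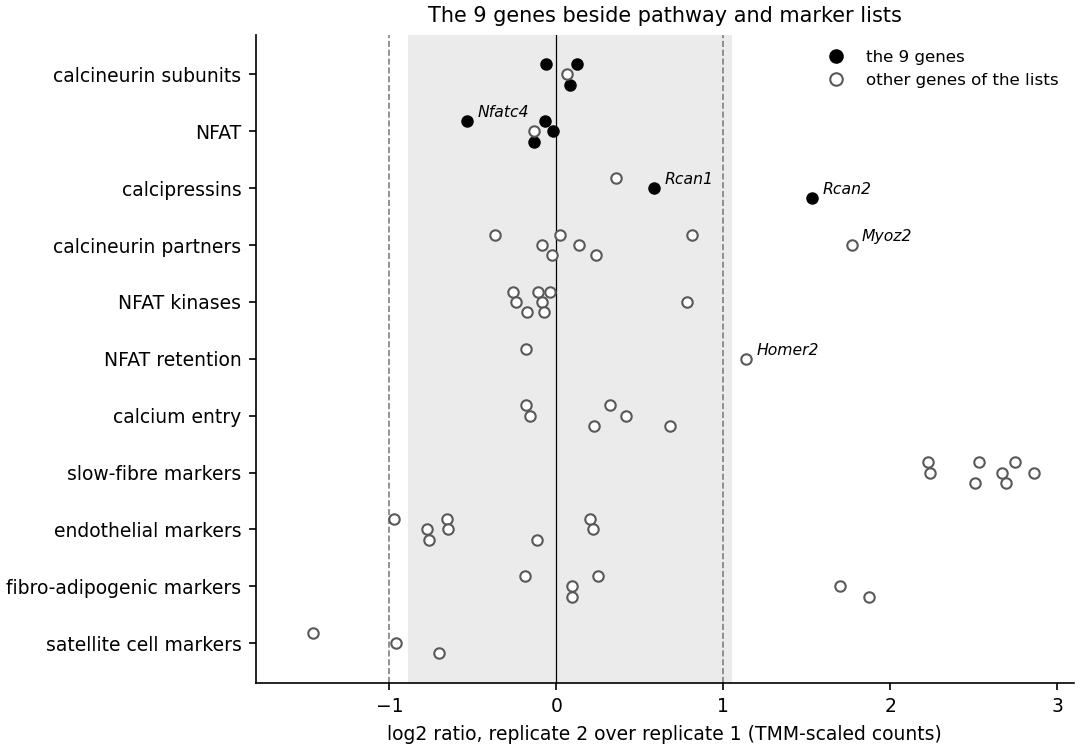
Log2 ratio of replicate 2 over replicate 1 for the 9 genes (filled) and for other pathway and marker genes (open), 1 row per list, with the middle 95% of all tested genes in grey and 2-fold as dashed lines. Of the 9 genes and the pathway genes, Rcan2 at 1.53, Myoz2 at 1.77 and Homer2 at 1.14 lie past 2-fold. All 8 slow-fibre markers lie above them, the lowest at 2.23. Of the other markers, Col1a1 at 1.70 and Col3a1 at 1.87 lie past 2-fold upwards, and Myod1 at -1.46 downwards.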

How the data were processed

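Total RNA-seq libraries of 2 samples were used. The notes deposited beside the tables name mm10 as build and GENCODE M21 as annotation. No aligner or quantifier version is named in the sources used here. The deposited gene and transcript tables hold expected counts and TPM that carry RSEM's column names, per the file headers. Other deposited tables hold estimated counts and TPM with kallisto's column names, per the file headers, and were summed per gene. A deposited column of isoform percent was set aside, since percents were computed from TPM. Posterior mean TPM served as an alternative, and bounds of the RSEM intervals are the authors' deposited values.

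Expected counts were rounded to whole numbers, and spike-in, phiX and tRNA rows stayed out of library sizes. For 12969 genes whose counts add up to 50 or more, edgeR 4.0.16 (R 4.3.3) gave TMM factors and, with a prior count of 2, log2 ratios, with DESeq2 1.42.0 size factors as an alternative. The ratio step was tested on simulated data. No test was made, as 1 group of 2 libraries leaves none. Python 3.11.15 with numpy 2.4.6, pandas 2.3.3, scipy 1.17.1 and matplotlib 3.10.9 did the rest. The reads carry no molecular identifiers and may repeat a molecule, so intervals cover counting error only.

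The 9 genes, the pathway and marker lists (skeletal muscle, slow fibre, endothelial, T cell, fibro-adipogenic and satellite cell) and the settings were chosen with earlier results of these data known. All 9 genes are named. Of each pathway list the 2 genes of highest mean TPM, every gene past 2-fold, and all genes of lists of up to 3 are named, except 1 gene that is not reported here. Transcripts are named where they take at least 10% of the gene's TPM in either library by RSEM or kallisto TPM. The mice carry a CAST/EiJ genome beside the C57BL/6J one that mm10 stands for, and the effect of its variants on the counts was not tested.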

Additional observations from a re-analysis of the deposited data

How the results depend on the processing

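No paired analysis was possible because there is 1 group. The ratio needs both of the 2 libraries, so none could be had with a library left out. The count past 2-fold was 1 under every scaling, filter, prior count and estimate run, and 2 with a threshold of 1.5-fold, which adds Rcan1. The log2 ratio of Rcan2 was 1.31 with spike-in totals and 1.39 with total gene counts, and between 1.41 and 1.55 otherwise. The median log2 ratio of the 9 genes was -0.24 with spike-in totals, -0.17 with total gene counts, and -0.17 and -0.16 with TPM at pseudocounts of 0.1 and 1, settings that moved the median of all genes by -0.22, -0.15, -0.14 and -0.11. With a summed count of at least 500, Nfatc4 dropped out. By kallisto the median level of the 9 genes was 24.7 TPM, against 19.6 TPM by RSEM, and the mean Ppp3ca share of catalytic TPM was 54.7%, against 48.4%. With counts not scaled for length, Ppp3ca took 52.0% of catalytic expression. Under that setting Nfatc3 took 42.2% of NFATc expression and Nfatc1 41.5%, against 38.0% for Nfatc3 and 44.6% for Nfatc1 by TPM, so the order of both turned. Mean transcript shares by kallisto were 47.7% for the Ppp3ca exon (RSEM 49.8%), 63.0% for the Ppp3cb exon (92.1%), 5.76% for the exon 4 form of Rcan1 (50.04%), 82.5% for the long form of Rcan2 (98.3%) and 75.1% for the leading first exon of Nfatc3 (81.6%); posterior means gave 93.3% for the Rcan2 form. The leading transcript was the same in both libraries for 9 genes by kallisto and for 4 by RSEM. The causes were not tested. With 1 library left out, the median level ran from 16.5 to 22.7 TPM by RSEM and from 21.1 to 28.3 TPM by kallisto, and the number of genes at 1 TPM from 8 to 9. Without 1 library, 27 pathway genes reached 1 TPM. For single genes, 88 of 132 values moved by less than their spread and 44 moved by more. That spread was the SD over both libraries for levels and shares, and came from the counting interval for ratios. A level or share with 1 library left out always lies within that SD of the mean. Such values are among the 88 and say nothing on stability. The log2 ratio of Ppp3ca changed sign, from 0.08 to -0.14 with spike-in totals and -0.07 with total gene counts. That of Ppp3r1 went from 0.12 to -0.10 with spike-in totals and -0.03 with total gene counts. Both genes were also below 0 with TPM at pseudocounts of 0.1 and 1. Nfatc4, with 74 counts in replicate 2 and 106 in replicate 1, is the gene whose values are limited by depth.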

Other observations

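Other annotated genes overlap the 9 in 10 places, and 2 of them share exon bases. Wdr92, on the same strand as Ppp3r1, shares 462 exon bases with it and had 3.30 TPM in replicate 2 and 3.57 TPM in replicate 1. Esrp2, an epithelial splicing factor on the strand opposite Nfatc3, shares 219 exon bases with it and had 1 count in replicate 2 and 3 in replicate 1. The labels describe stranded libraries, and how the counting used strand is not stated there. The RSEM counts of all 9 genes were whole within 0.005.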
